A study of Mus musculus with 12 samples.

Results

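The 10 genes here were grouped as coinhibitory and costimulatory receptors of T cells: Pdcd1, Tigit, Lag3, Havcr2, Btla, Cd200, Icos, Cd28, Klrg1 and Cd83. They were chosen by name among the 41457 genes listed in every library for what they encode; the choice was made with earlier results of these data known. All 10 passed the filter on low counts in every comparison. Cd200 encodes the ligand of the receptor CD200R and is called a receptor below only as a member of this list.

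T cell receptors of this kind tune the signal that follows recognition of antigen. Costimulatory receptors such as CD28 and ICOS recruit phosphoinositide 3-kinase and sustain the signal, while coinhibitory receptors such as PD-1 and BTLA recruit phosphatases that lower it. Regulatory T cells (Treg), the Foxp3-expressing CD4+ T cells that restrain immune responses, carry many of these molecules at rest, and several of them serve as marks of activated or effector Treg.

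The study compared Treg of mice that lack CD18, the common β chain of the β2-integrins encoded by Itgb2, with control Treg. In CD18Foxp3 mice exon 3 of both floxed CD18 alleles is removed by a Cre recombinase expressed from Foxp3, and the controls, called CD18wt, are littermates that carry the same Cre with unmodified CD18 alleles. Splenic CD4+ T cells positive for a red fluorescent reporter of Cre activity were sorted and kept overnight in 5 U/mL of IL-2 (unstimulated) or in IL-2 with agonistic antibodies to CD3 (1 µg/mL) and CD28 (2 µg/mL; stimulated). The protein of 1 of the 10 genes, Cd28, was thus itself the target of a stimulating antibody. Each of the 4 groups held 3 libraries, labelled as biological replicates; the age of the mice used for RNA is not given in the sources used here. The reporter stays on in any cell that once expressed the Cre, and the sorted cells are a mixture of Treg states. In such bulk samples fewer cells that express a gene and less RNA of it per cell cannot be told apart.

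The libraries held 10665174 to 19005482 exon reads. Itgb2 was measured at 428 ± 39.2 and 240.1 ± 15.0 TPM (transcript levels scaled to gene length and library; SD, n = 3) in unstimulated CD18wt and CD18Foxp3 Treg and at 329.9 ± 1.16 and 172 ± 36.7 TPM in stimulated Treg. Its reads come from all exons, so they do not measure the deleted exon alone. Foxp3 was present in every library, at 92.3 ± 17.5 to 187 ± 35.1 TPM by group. Of 8 markers of CD8 T and NK cells, Ncr1 and Klra8 were listed at 0 in all 4 groups, Cd8a held 0 to 17 reads and Klrk1 and Klrc1 0 to 14 reads a library, while Cd8b1 stood at 12.5 to 30.4 TPM in every library and Klrb1c at 1.58 to 5.32 TPM in the unstimulated ones. Eomes held 20 to 127 reads a library, at 3.44 ± 1.26 TPM in unstimulated and 1.89 ± 0.625 TPM in stimulated CD18wt Treg. In CD18Foxp3 Treg Eomes was at 2.65 ± 0.383 and 1.64 ± 0.842 TPM. The library CD18wt unstimulated replicate 3 had the fewest exon reads and, at 3.32% of gene reads, the lowest share of intron reads (3.66% to 5.99% in the other 11).

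On GRCm38 the 10 genes lie on 5 chromosomes. Cd28 (ENSMUSG00000026012, chr1:60716800-60773359) and Icos (ENSMUSG00000026009, chr1:60977927-61000320), relatives that both lie on the plus strand, are 204.6 kb apart. Pdcd1 (ENSMUSG00000026285, chr1:94038305-94052553) lies far from them on the same chromosome. Chromosome 16 holds Tigit (ENSMUSG00000071552, chr16:43648867-43664146), Btla (ENSMUSG00000052013, chr16:45224315-45257670) and Cd200 (ENSMUSG00000022661, chr16:45382135-45409053), the last 2 of them 124.5 kb apart on opposite strands. Chromosome 6 holds Klrg1 (ENSMUSG00000030114, chr6:122270596-122282882) and Lag3 (ENSMUSG00000030124, chr6:124904361-124911705). Havcr2 (ENSMUSG00000020399) is at chr11:46454935-46481255 and Cd83 (ENSMUSG00000015396) at chr13:43784775-43803132. All 10 are protein-coding, and the exon reads counted for them cover coding sequence and untranslated regions alike.

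The RefSeq promoter table for GRCm38.p6 matched 5 of the 10 genes. Of these, 4 are shown: Pdcd1 and Tigit, which stood on opposite sides of the genotype comparison, and the neighbours Btla and Cd200, of which edgeR called Cd200 alone on stimulation. Each line is the 250 bases before the start in that promoter table, read 5′ to 3′ on the strand of the gene. For Tigit and Btla this start differs from that of the gene coordinates given above, and the Btla window reaches into the gene as given there. Capitals mark the core bases of NFAT sites (GGAAA or its complement TTTCC), since NFAT is a factor switched on through the T cell receptor.
Pdcd1, minus strand, chr1:94052554-94052803: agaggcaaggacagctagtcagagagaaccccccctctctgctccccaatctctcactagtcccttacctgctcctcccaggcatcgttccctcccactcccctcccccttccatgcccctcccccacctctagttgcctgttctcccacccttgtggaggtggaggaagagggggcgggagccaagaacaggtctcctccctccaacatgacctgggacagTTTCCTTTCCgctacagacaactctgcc
Tigit, minus strand, chr16:43664185-43664434: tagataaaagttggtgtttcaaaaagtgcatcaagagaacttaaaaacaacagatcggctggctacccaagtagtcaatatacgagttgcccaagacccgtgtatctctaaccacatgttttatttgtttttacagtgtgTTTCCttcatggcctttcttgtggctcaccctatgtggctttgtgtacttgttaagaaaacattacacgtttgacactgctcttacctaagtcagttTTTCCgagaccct
Btla, plus strand, chr16:45224087-45224336: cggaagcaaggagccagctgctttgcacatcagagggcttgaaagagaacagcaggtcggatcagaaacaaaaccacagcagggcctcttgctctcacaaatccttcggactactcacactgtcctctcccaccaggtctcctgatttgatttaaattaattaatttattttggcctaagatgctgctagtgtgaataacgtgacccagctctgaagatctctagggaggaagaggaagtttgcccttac
Cd200, minus strand, chr16:45409054-45409303: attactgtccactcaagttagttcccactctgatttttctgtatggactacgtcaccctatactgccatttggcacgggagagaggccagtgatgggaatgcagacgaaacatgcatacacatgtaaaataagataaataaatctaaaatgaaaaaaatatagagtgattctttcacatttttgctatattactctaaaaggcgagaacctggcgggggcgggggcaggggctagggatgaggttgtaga
Pdcd1 and Tigit held 2 matches each, in Pdcd1 side by side close to the start. Btla and Cd200 held none. At least 1 match was found on either strand in 55.6% of 32851 windows of this length, so a match is no rare feature. Havcr2 held 1 match to TGANTCA, the AP-1 letters, found in 6.75% of windows. None of the 5 windows held TGTTTAC (forkhead factors, 3.17% of windows) or TATAAA (12.4%), searched on both strands. A match describes letters only, and binding was not measured.

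Tigit was the most abundant of the 10 in all 4 groups. TIGIT competes with CD226 for the ligand CD155. In unstimulated CD18wt Treg it was at 564 ± 95.1 TPM (SD, n = 3), above Pdcd1 at 373 ± 32.2 TPM, without overlap between their libraries. Lag3 (144 ± 20.3 TPM), Icos (143 ± 8.73 TPM) and Cd28 (133 ± 15.7 TPM) followed and overlapped each other in that order. Cd83 (109 ± 12.4 TPM) lay below Cd28 with no overlap. Btla (72.1 ± 15.3 TPM) and Cd200 (64.6 ± 5.63 TPM) overlapped, and Klrg1 (26.0 ± 10.0 TPM) and Havcr2 (0.971 ± 0.488 TPM) closed the order, each apart from its neighbour. Over the 12 libraries Tigit ranked 168 of 12636 tested genes by mean TPM and Havcr2 ranked 9533. TPM are per length, so these levels can be compared between genes.

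After stimulation the order differed. In stimulated CD18wt Treg Icos (293 ± 58.4 TPM) and Cd200 (229.8 ± 31.3 TPM) stood directly below Pdcd1 (336 ± 87.6 TPM), overlapping in that order. In stimulated CD18Foxp3 Treg Icos took the place below Tigit, at 571 ± 132 against 966 ± 122 TPM, and lay above Pdcd1 (292 ± 50.7 TPM) without overlap. The plot of levels by library shows these shifts.

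**Figure D1:**
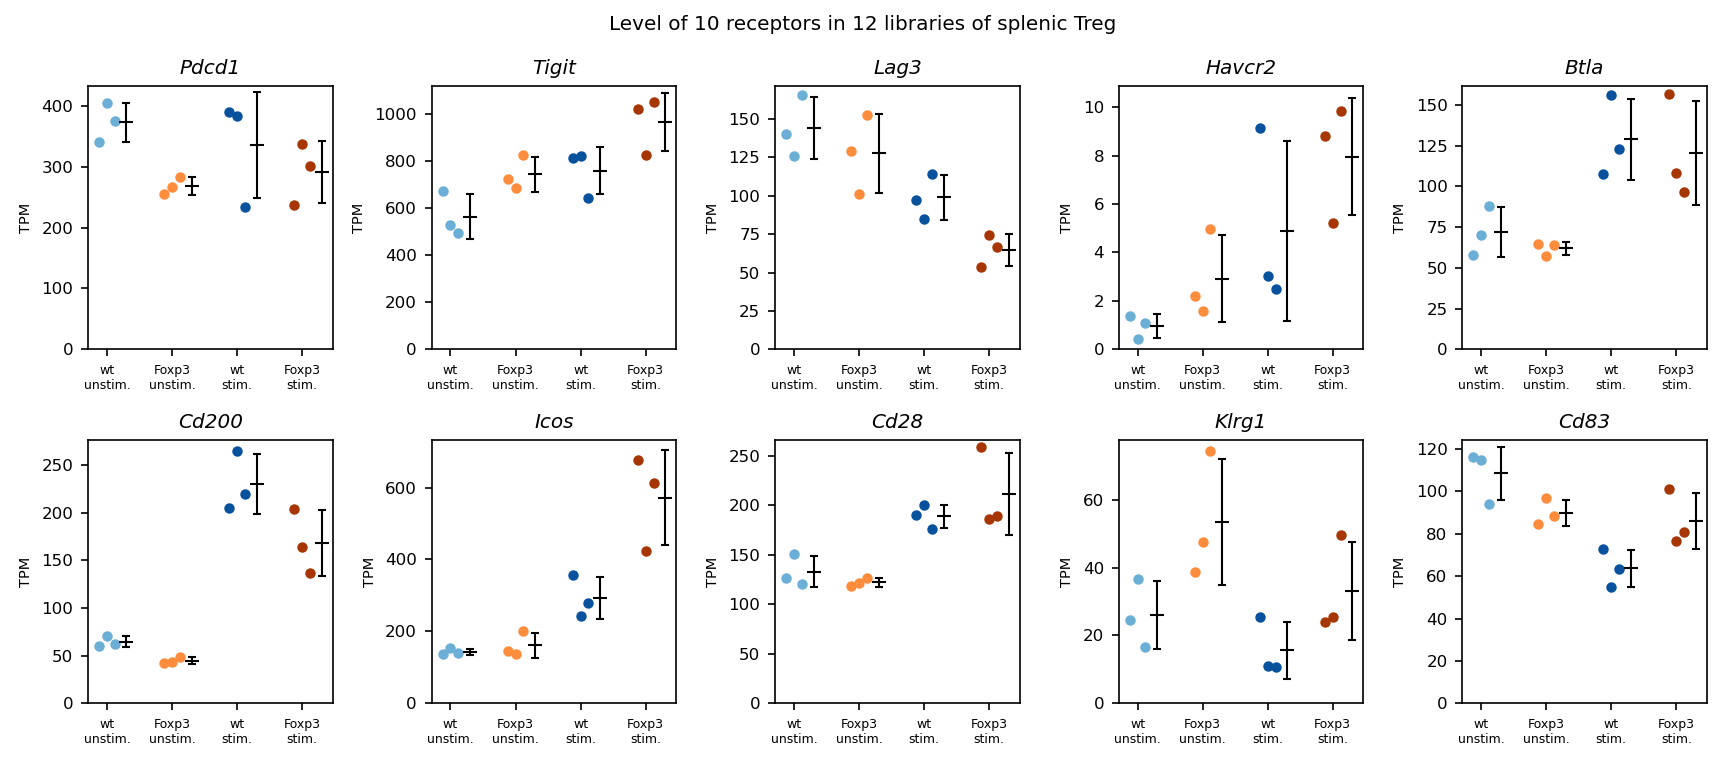
Level (TPM, linear axes from 0) of the 10 receptors in the 12 libraries; coloured points are the 3 libraries of each group (wt, CD18wt; Foxp3, CD18Foxp3), and the black mark with its bar is the mean ± SD. Cd200 stood higher in every stimulated than in every unstimulated library, and Icos was highest in the stimulated CD18Foxp3 libraries at 424 to 677 TPM.

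The response to the antibodies was asked within each genotype. Icos and Cd200 rose and Lag3 fell in both genotypes, and Cd83 fell in CD18wt Treg. A gene was called changed at a fold change of at least 1.5 with an adjusted p of at most 0.01 (edgeR's quasi-likelihood test). In CD18wt Treg 4 of the 10 were called, where 33.6% of all 11930 genes tested were, with 2 higher (18.7% of all genes) and 2 lower (14.9%). In CD18Foxp3 Treg 3 of the 10 were called, where 38.6% of 12019 genes were, with 2 higher (20.9%) and 1 lower (17.6%). DESeq2 called 6 of the 10 in CD18wt Treg (36.5% of all genes) and 5 in CD18Foxp3 Treg (42.2%). Whether these shares differ from those of all genes was not tested. The median log2 fold change of the 10 was 0.08 in CD18wt and 0.22 in CD18Foxp3 Treg, against 0.02 and 0.01 for all genes tested.

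Cd200 encodes a surface glycoprotein that signals to myeloid cells through CD200R. Its libraries read 60.3, 70.9 and 62.4 TPM in unstimulated and 205, 265 and 219.8 TPM in stimulated CD18wt Treg. In CD18Foxp3 Treg they read 41.9, 43.3 and 48.7 TPM and, stimulated, 204, 164 and 136 TPM. In both genotypes the lowest stimulated library lay far above the highest unstimulated one. It rose by 1.44 on the log2 scale (SE, the standard error, 0.16, 2.72-fold, adjusted p = 9.36e-06) in CD18wt and by 1.55 (0.16, 2.93-fold, adjusted p = 5.13e-05) in CD18Foxp3 Treg, and the call held in every refit.

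Icos, the inducible costimulator whose ligand is ICOSL, read 137, 153 and 139 TPM in unstimulated and 358, 244 and 278 TPM in stimulated CD18wt Treg. In CD18Foxp3 Treg it read 146, 138 and 202 TPM and, stimulated, 677, 424 and 613 TPM. No stimulated library overlapped an unstimulated one of its genotype. It rose by 0.63 on the log2 scale (SE 0.14, 1.55-fold, adjusted p = 0.00258) in CD18wt Treg. This call was lost without unstimulated replicate 1 (adjusted p = 0.0186), unstimulated replicate 2 (0.0106) or stimulated replicate 1 (0.0154). With the replicate number as a block it was also lost (0.62, adjusted p = 0.0103). In CD18Foxp3 Treg Icos rose by 1.46 (SE 0.21, 2.76-fold, adjusted p = 0.000289) and the call held in every refit.

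Lag3 encodes a CD4 relative that binds MHC class II. It read 140.1, 126 and 166 TPM in unstimulated and 97.4, 85.1 and 114 TPM in stimulated CD18wt Treg. In CD18Foxp3 Treg it read 129, 101 and 153 TPM and, stimulated, 53.7, 74.5 and 66.6 TPM. The stimulated libraries were lower without overlap in both. On the log2 scale the change was -0.95 (SE 0.15, adjusted p = 0.000202) in CD18wt and -1.34 (0.16, adjusted p = 0.000122) in CD18Foxp3 Treg. On the TPM scale the fall in CD18wt Treg was -0.54 and was not called (limma on log2(TPM + 1), adjusted p = 0.012).

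Cd83, a surface protein of activated lymphocytes and dendritic cells, read 116, 115 and 94.2 TPM in unstimulated and 72.6, 55.1 and 63.4 TPM in stimulated CD18wt Treg. It fell by 1.17 on the log2 scale (SE 0.13, 2.25-fold, adjusted p = 1.16e-05), and this call held in every refit. In CD18Foxp3 Treg it read 84.7, 96.9 and 88.2 TPM and, stimulated, 101, 76.6 and 80.7 TPM, with overlap. The log2 fold change there was -0.42 (SE 0.14, adjusted p = 0.0316) and was not called. Without stimulated replicate 1, the library with the highest level, it was -0.59 and was called (adjusted p = 0.000177). On the TPM scale it was -0.07 in CD18Foxp3 and -0.76 in CD18wt Treg, called in the latter. Cells of other kinds also express Cd83. The summed level of 7 B cell markers went from between 27.3 and 39.2 TPM in the 6 unstimulated libraries to between 9.58 and 21.5 TPM in the 6 stimulated ones, of which Cd79b made up the most. Ighm, also on that list, had no exon reads and was left out of the sum. Its intron reads numbered 5906 to 13144 in unstimulated and 3537 to 5386 in stimulated libraries. The part of these markers in the Cd83 result was not tested.

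The other 6 receptors were not called by edgeR on stimulation, though several were under other settings. Klrg1, a lectin-like inhibitory receptor for cadherins, had a log2 fold change of -1.14 (SE 0.36, adjusted p = 0.0187) in CD18wt and -1.05 (0.32, adjusted p = 0.0181) in CD18Foxp3 Treg. Its libraries overlapped in both genotypes, and a call was reached without CD18wt stimulated replicate 1 (adjusted p = 0.00249) and without CD18Foxp3 stimulated replicate 3 (0.00151), each the highest of its group. DESeq2 called it in both (adjusted p = 0.00345 and 0.0017), as did edgeR without the filter on low counts (0.000211 and 4.81e-07). With the replicate number as a block it was called in CD18Foxp3 Treg (-1.08, adjusted p = 0.000206). Without the filter calls over all genes were 4435 in CD18wt and 5357 in CD18Foxp3 Treg, against 4013 and 4636 with it. The summed level of 8 markers of CD8 T and NK cells was 27.9 to 38.9 TPM in unstimulated and 14.1 to 28.5 TPM in stimulated libraries, with Cd8b1 making up the most, and its part in the Klrg1 values was not tested.

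Havcr2, which encodes TIM-3, held 8 to 152 reads a library and was the least well measured. It read 1.39, 0.436 and 1.09 TPM in unstimulated and 9.15, 3.01 and 2.49 TPM in stimulated CD18wt Treg, and 2.21, 1.59 and 4.96 against 8.82, 5.22 and 9.83 TPM in CD18Foxp3 Treg. The stimulated libraries were higher without overlap in both genotypes. The log2 fold change was 1.91 (95% interval 0.54 to 3.27, adjusted p = 0.0232) and 1.09 (0.14 to 2.05, adjusted p = 0.0516), neither called by edgeR. DESeq2 called it in CD18wt Treg (1.88, adjusted p = 0.00793), and edgeR without the filter called it in both (0.00367 and 0.00209). In CD18Foxp3 Treg it was also called with the replicate block (adjusted p = 0.00561) and without unstimulated replicate 3 (1.67, adjusted p = 0.00878). With 1 library left out the value ranged from 1.13 to 2.27 in CD18wt Treg, the lowest without stimulated replicate 1, and from 0.81 to 1.67 in CD18Foxp3 Treg. TIM-3 is also a myeloid receptor. The summed level of 10 myeloid and dendritic cell markers was 142 to 206 TPM in unstimulated and 116 to 187 TPM in stimulated libraries, of which Cst3 made up the most. Lyz2 was called lower in CD18wt Treg (8.35 ± 6.29 to 0.923 ± 0.822 TPM) and Itgam in CD18Foxp3 Treg (0.669 ± 0.285 to 0.0722 ± 0.0383 TPM). The part of these markers in the Havcr2 values was not tested.

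Btla, a receptor for the TNF receptor family member HVEM, stood at 72.1 ± 15.3 and 129 ± 24.8 TPM in unstimulated and stimulated CD18wt Treg and at 62.1 ± 4.04 and 120.5 ± 32.0 TPM in CD18Foxp3 Treg. Its log2 fold change was 0.45 (SE 0.22, adjusted p = 0.112) and 0.60 (0.19, adjusted p = 0.0208), and the latter was called without CD18Foxp3 stimulated replicate 3 (0.73, adjusted p = 0.00799). Leaving out that library brought the count of called receptors in CD18Foxp3 Treg from 3 to 5, with Klrg1 and Btla added. Calls over all genes went from 4636 to 4420 in that refit. In CD18Foxp3 Treg Btla was also called by DESeq2 (adjusted p = 0.00763) and by edgeR without the filter (6e-05). On the TPM scale it was called in both genotypes, at 0.84 (adjusted p = 0.00428, limma) and 0.92 (0.00288).

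Pdcd1, Tigit and Cd28 were not called with counts by any tool. Pdcd1, which encodes PD-1, had a log2 fold change of -0.54 (adjusted p = 0.0429) in CD18wt and -0.25 (adjusted p = 0.125) in CD18Foxp3 Treg, the latter 0.11 on the TPM scale. Tigit had 0.04 (95% interval -0.31 to 0.39) and 0.02 (-0.28 to 0.31), and Cd28, the receptor for CD80 and CD86, had 0.12 (-0.19 to 0.42) and 0.43 (0.09 to 0.77). The scale matters for these genes and for Btla and Cd83. With TMM scaling of counts the median log2 fold change of all genes tested was 0.02 in CD18wt and 0.01 in CD18Foxp3 Treg, and with log2(TPM + 1) it was 0.36 and 0.31. Of all called genes 55.7% and 54.3% were higher with counts and 80.9% and 75.9% with TPM. On the TPM scale Tigit stood at 0.43 and 0.37 and Cd28 at 0.51 and 0.77, of which only Cd28 in CD18Foxp3 Treg was called (adjusted p = 0.00198, limma). In TPM the libraries did not overlap for 7 of the 10 receptors in CD18wt Treg, against 62% of all genes tested, with 5 higher (47.8%) and 2 lower (14.2%). In CD18Foxp3 Treg this held for 6 of the 10, against 67.1%, with 5 higher (47.9%) and 1 lower (19.2%).

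**Figure D2:**
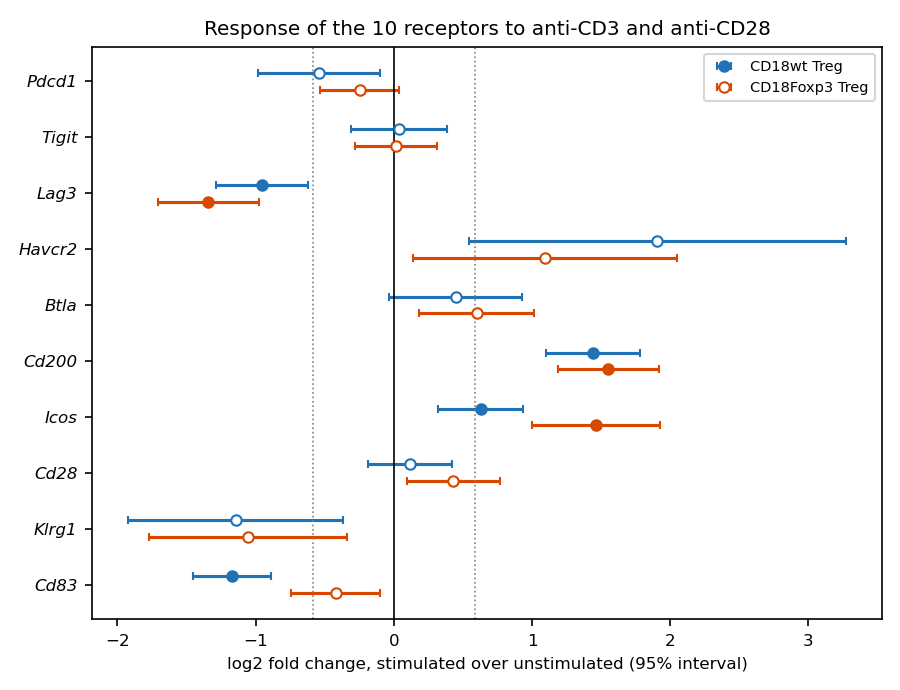
Log2 fold change of each receptor on stimulation (stimulated over unstimulated, edgeR on counts) with its 95% interval in CD18wt and CD18Foxp3 Treg; filled points were called and dotted lines mark a fold of 1.5. Cd200 and Icos lie to the right and Lag3 to the left of 0 in both genotypes, and Tigit lies at 0.04 and 0.02. With all libraries kept, Cd83 was called in CD18wt Treg alone.

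The comparison of the genotypes asked whether loss of CD18 came with another receptor profile. In unstimulated Treg none of the 10 receptors was called by edgeR, where 0.135% of 11829 genes were (16 genes), and none by DESeq2 (0.727% of genes) or by limma. Without the filter on low counts edgeR called Klrg1 (log2 fold change 1.01, adjusted p = 9.62e-07). That setting called 134 genes over all, against 16 with the filter. At an unadjusted p under 0.05 stood 6 of the 10, namely Pdcd1, Cd200, Tigit, Klrg1, Cd83 and Havcr2, against 9.59% of all genes tested. In TPM 5 of the 10 did not overlap between the genotypes, against 15.6% of all genes. In CD18Foxp3 Treg 3 were higher (Klrg1, Havcr2 and Tigit; 8.74% of all genes) and 2 lower (Pdcd1 and Cd200; 6.9%). The 10 were chosen with earlier results of these data known. Whether their shares differ from those of all genes was not tested.

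Pdcd1 read 341, 405 and 375 TPM in unstimulated CD18wt and 256, 266 and 284 TPM in unstimulated CD18Foxp3 Treg. Every CD18Foxp3 library lay below every CD18wt library. Their log2 difference was -0.50 (SE 0.09, 95% interval -0.69 to -0.31, adjusted p = 0.0334), short of both thresholds. Cd200 was 64.6 ± 5.63 TPM in CD18wt and 44.6 ± 3.61 TPM in CD18Foxp3 Treg, a log2 fold change of -0.56 (SE 0.09, 95% interval -0.76 to -0.35, adjusted p = 0.0286). These were the 2 receptors with the smallest p in this comparison.

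Tigit differed the other way. It read 672, 528 and 492 TPM in unstimulated CD18wt and 722, 684 and 827 TPM in unstimulated CD18Foxp3 Treg, a log2 fold change of 0.38 (SE 0.11, adjusted p = 0.22). Klrg1 read 24.5, 36.6 and 16.7 TPM against 38.8, 47.5 and 74.2 TPM, a log2 fold change of 1.00 (SE 0.30, adjusted p = 0.284). In CD18Foxp3 Treg the lowest Klrg1 library lay just above the highest CD18wt library. Havcr2 had a log2 fold change of 1.56 (95% interval 0.33 to 2.79, adjusted p = 0.36; 0.97 to 1.94 with 1 library left out) and Cd83 of -0.29 (-0.50 to -0.08, adjusted p = 0.293). The remaining 4 had intervals that included 0, from -0.55 to 0.14 for Lag3, -0.59 to 0.10 for Btla, -0.33 to 0.05 for Cd28 and -0.11 to 0.41 for Icos. The summed markers of CD8 T and NK cells ranged over 27.9 to 38.9 TPM in CD18wt and 27.9 to 36.1 TPM in CD18Foxp3 unstimulated libraries, within which Klrb1c stood at 4.40 ± 0.825 and 2.22 ± 0.580 TPM. The B cell sum was 33.7 to 39.2 and 27.3 to 35.5 TPM. The myeloid sum was 142 to 179 and 175 to 206 TPM, of which Cst3 alone made up 136 to 162 and 173 to 203 TPM. Among the 4 tested markers of each, the median log2 fold change was -0.49 for B cells and -0.61 for myeloid cells, and 2 of each had an unadjusted p under 0.05. The part of these markers in the lower Cd83, Cd200 and Pdcd1 or the higher Klrg1 and Havcr2 was not tested.

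In stimulated Treg edgeR called none of the 10 receptors and 0% of 11930 genes. DESeq2 called 1 receptor, Icos, and 0.184% of the genes, and limma called no receptor. Without the filter edgeR called Icos (adjusted p = 1.58e-05), and 61 genes over all against 0 with the filter. At an unadjusted p under 0.05 stood 5 of the 10, namely Icos, Lag3, Klrg1, Cd83 and Cd200, against 4.89% of all genes tested. The libraries did not overlap for 5 of the 10, against 9.43% of all genes, with 3 higher (Icos, Cd83 and Tigit; 5.02%) and 2 lower (Lag3 and Cd200; 4.41%) in CD18Foxp3 Treg. For this list, chosen with earlier results known, a difference from the shares of all genes was not tested.

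Icos, given above by library, was higher in every stimulated CD18Foxp3 library (424 to 677 TPM) than in every stimulated CD18wt library (244 to 358 TPM). This is a log2 difference of 0.99 (SE 0.20, 95% interval 0.54 to 1.43, adjusted p = 0.367 by edgeR and 0.00223 by DESeq2). Lag3 ran the other way at -0.59 (SE 0.16, adjusted p = 0.627), with 53.7 to 74.5 TPM in CD18Foxp3 against 85.1 to 114 TPM in CD18wt libraries.

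Klrg1 read 25.3, 10.97 and 10.7 TPM in stimulated CD18wt and 24.0, 25.6 and 49.7 TPM in stimulated CD18Foxp3 Treg, with overlap and a log2 fold change of 1.11 (SE 0.39, adjusted p = 0.902). With 1 library left out it ranged from 0.69 to 1.60, and the value of 1.00 in unstimulated Treg from 0.72 to 1.32, none of them called. Tigit had 0.35 (95% interval -0.04 to 0.74), Cd83 0.46 (0.09 to 0.83) and Cd200 -0.45 (-0.88 to -0.02). Pdcd1, lower in every unstimulated CD18Foxp3 library, overlapped after stimulation and had -0.21 (-0.69 to 0.28), with CD18wt stimulated replicate 3 at 235 TPM below the other CD18wt libraries at 389 and 383 TPM. Havcr2 (0.75, -0.29 to 1.79), Cd28 (0.17, -0.22 to 0.56) and Btla (-0.10, -0.60 to 0.40) had intervals that included 0. The value of Havcr2 ranged from 0.42 to 1.52 with 1 library left out, the highest without CD18wt stimulated replicate 1.

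**Figure D3:**
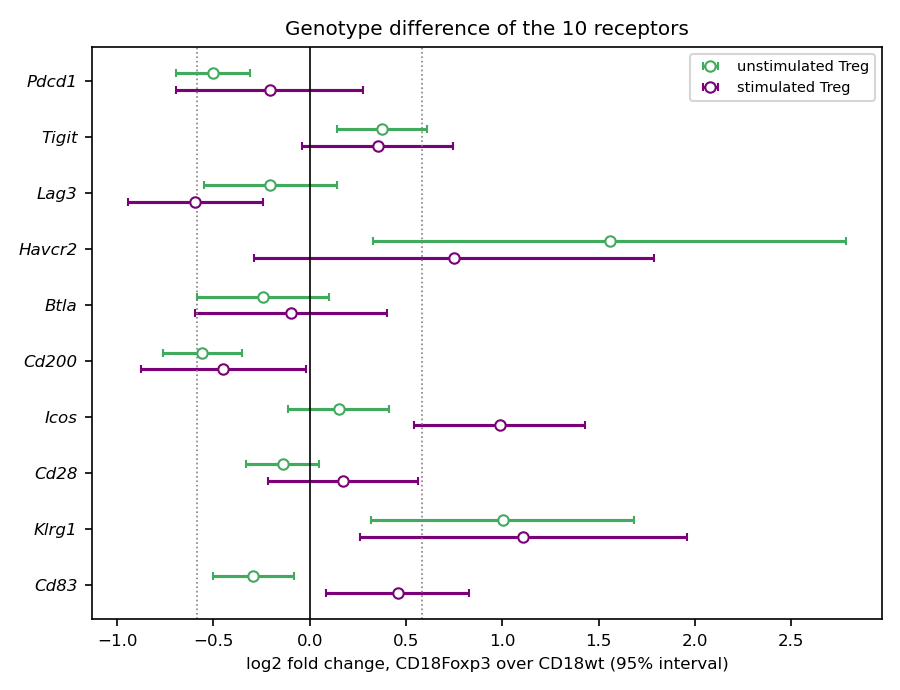
Log2 fold change of each receptor between genotypes (CD18Foxp3 over CD18wt, edgeR on counts) with its 95% interval in unstimulated and stimulated Treg; open points were not called and dotted lines mark a fold of 1.5. Tigit, Klrg1, Havcr2 and Icos lie to the right and Pdcd1, Cd200, Lag3 and Btla to the left of 0 in both cultures. Several of their intervals include 0. Cd83 lies at -0.29 and 0.46 and Cd28 at -0.14 and 0.17.

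Whether the genotypes responded differently to stimulation was tested by the interaction of genotype and stimulation over all 12 libraries. None of the 10 was called by edgeR (0% of 12636 genes) or by DESeq2 (0.00791%, 1 gene). At an unadjusted p under 0.05 stood 2 of the 10, against 3.84% of all genes, a difference that was not tested. Cd83 had an interaction of 0.74 (SE 0.19, adjusted p = 0.848) and Icos one of 0.83 (SE 0.26, adjusted p = 0.987). For Cd83 the sign says that the fall seen in CD18wt Treg was smaller in CD18Foxp3 Treg, and for Icos that the rise was larger. Neither difference passed the adjustment, so a call in 1 genotype and not in the other is not shown to be a difference between them. The interaction of Cd200 was 0.10 (95% interval -0.38 to 0.59).

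Ratios within a library do not depend on how libraries are scaled, and were chosen after the values were seen. Tigit over Pdcd1, both inhibitory receptors, was 1.53 ± 0.384 (SD, n = 3) in unstimulated CD18wt and 2.77 ± 0.178 in unstimulated CD18Foxp3 Treg, without overlap. In stimulated Treg it was 2.32 ± 0.361 and 3.41 ± 0.929, with overlap. Icos over Cd28, the paired costimulatory receptors of chromosome 1, was 1.08 ± 0.0653 and 1.32 ± 0.242 in unstimulated Treg, with overlap. After stimulation it was 1.56 ± 0.329 in CD18wt and 2.71 ± 0.490 in CD18Foxp3 Treg, without overlap. Cd200 over its neighbour Btla was 0.921 ± 0.186 and 0.720 ± 0.0612 in unstimulated and 1.79 ± 0.102 and 1.41 ± 0.106 in stimulated Treg. Tigit over Cd226, its activating competitor, was 10.0 ± 2.49 and 14.1 ± 2.16 in unstimulated and 10.9 ± 2.33 and 16.0 ± 3.90 in stimulated Treg. For 3 against 3 libraries the smallest two-sided p of the exact permutation test is 0.1, which the ratios without overlap had, so this test cannot pass 0.05 here and no other test was run on the ratios.

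**Figure D4:**
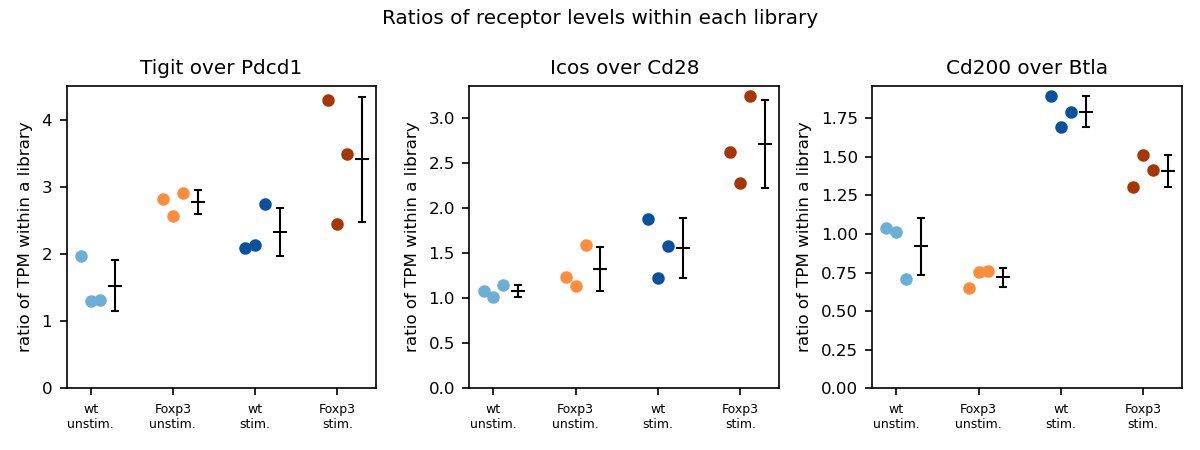
Ratio of TPM within each library (linear axes from 0) for Tigit over Pdcd1, Icos over Cd28 and Cd200 over Btla; points are the 3 libraries of a group, black marks the mean ± SD. Tigit over Pdcd1 was above 2.5 in every unstimulated CD18Foxp3 library and at most 1.97 in the CD18wt ones, and Icos over Cd28 was highest in stimulated CD18Foxp3 Treg at 2.27 to 3.24.

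Reads over annotated introns, which can come from unspliced RNA or from exons that the annotation lacks, were counted apart from exon reads. For Cd28 they made up 11.04%, 10.3% and 8.71% of gene reads in unstimulated and 3.19%, 3.10% and 2.58% in stimulated CD18Foxp3 Treg, without overlap. In CD18wt Treg they made up 9.57%, 13.6% and 2.12% unstimulated and 3.46%, 3.27% and 3.92% stimulated. The low value of 2.12% is that of replicate 3, the library with the lowest intron share over all genes, and it made the groups overlap. Over all genes the share was 3.32% to 5.02% in unstimulated and 3.66% to 5.99% in stimulated libraries. Btla kept a high share, 15.3% to 28.4%, in all 4 groups, as did Tigit at 10.6% to 19.7%. Pdcd1 had a share of at most 2.95% and Icos of 2.26% to 5.07%. No test was run on these shares.

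**Figure D5:**
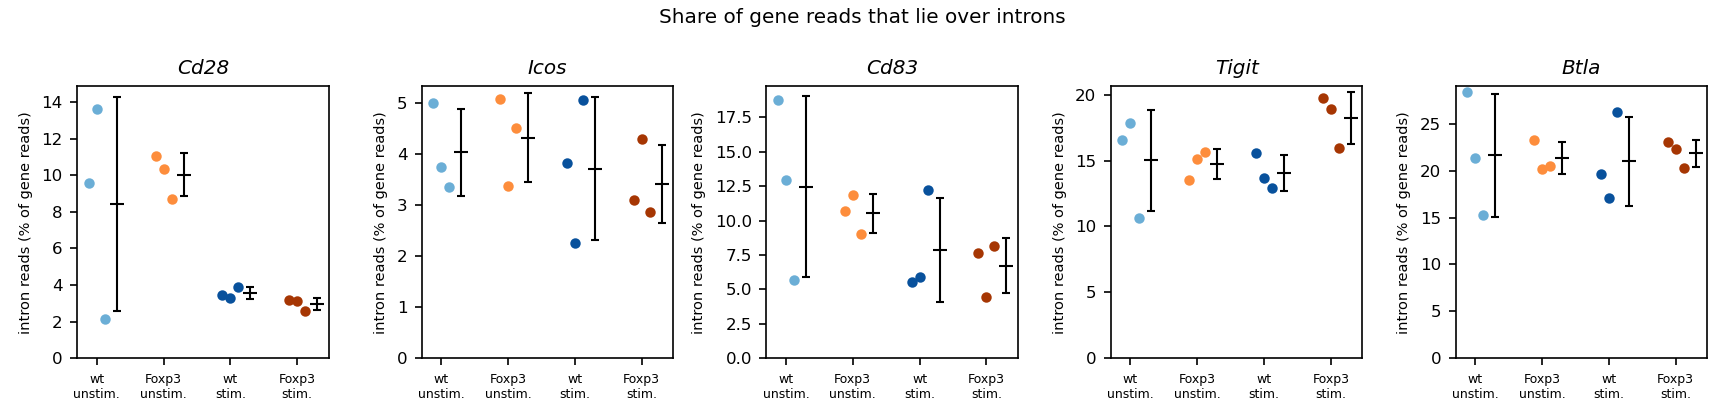
Share of gene reads that lie over introns (percent, linear axes from 0) for 5 receptors; points are the 3 libraries of a group, black marks the mean ± SD. Cd28 was at 8.71% or more in 5 of the 6 unstimulated libraries and at most 3.92% in the stimulated ones.

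The ligands of these receptors are carried mostly by other cells but some are expressed by Treg. Of 16 ligands and counter-receptors 11 were tested for stimulation in each genotype. Of all genes tested 18.7% were called higher and 14.9% lower in CD18wt Treg. Of the ligands 2 rose there, Cd274 (which encodes PD-L1, log2 fold change 0.96) and Pdcd1lg2 (PD-L2, 0.83), and 3 fell, Icosl (-4.25), Cd86 (-1.74) and Lgals9 (galectin-9, -1.17). In CD18Foxp3 Treg 3 rose and 4 fell (20.9% and 17.6% of all genes), with Pdcd1lg2 at 1.40, Cd200r1 (the receptor of CD200) at 1.16 and Cd274 at 0.96, and Icosl at -2.58, Cd86 at -1.67 and Lgals9 at -1.13. Icosl held 2 to 14 reads in the stimulated CD18wt libraries. B cells also express Icosl and Cd86, and of the B cell markers Pax5, Cd22 and Cd79b were called lower in CD18wt and Cd22 and Cd79b in CD18Foxp3 Treg on stimulation, with a median of -2.46 over the 4 tested and -2.42 over the 2 tested. Their part in the ligand values was not tested. The lists' median was -0.13 and 0.31. None was called between the genotypes. Cd274 and Cd200r1 here, and Ctla4 and Cd226 among the related receptors, were named after their values were seen.

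Of 13 related receptors 12 were tested. Stimulation raised none and lowered 6 in CD18wt Treg, and raised 1 and lowered 8 in CD18Foxp3 Treg, with a median log2 fold change of -1.04 and -1.06. Of all genes tested 18.7% were called higher and 14.9% lower in CD18wt Treg, and 20.9% and 17.6% in CD18Foxp3 Treg. Those with the largest falls were Cd101 (-2.30), Cd96 (-2.08), a TIGIT relative that shares its ligand, and Cd160 (-1.67), a further HVEM receptor, in CD18wt Treg. In CD18Foxp3 Treg these were Lair1 (-2.94), Cd101 (-2.19) and Cd96 (-1.71). Lair1 held 3 to 19 reads in the stimulated CD18Foxp3 libraries. Ctla4, the inhibitory counterpart of Cd28, was the only one that rose, in CD18Foxp3 Treg (1.94, adjusted p = 2.94e-05). In CD18wt Treg it had 1.02 (adjusted p = 0.0531). Cd226 was not called in either genotype (-0.12 and -0.14).

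All 18 signalling partners were tested, among them the kinases and phosphatases that the receptors recruit. None rose and 6 fell in CD18wt Treg, and none rose and 7 fell in CD18Foxp3 Treg, beside 14.9% and 17.6% of all genes called lower. The largest falls were those of Sh2d1a (-2.20), which encodes the adaptor SAP, Pik3r1 (-0.97), a regulatory subunit of phosphoinositide 3-kinase, and the kinase gene Lck (-0.81) in CD18wt Treg. In CD18Foxp3 Treg they were Sh2d1a (-2.08), Lck (-0.93) and the kinase gene Fyn (-0.88).

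Of 15 transcription factors known to regulate such receptors, 4 rose and 5 fell in CD18wt and 5 rose and 3 fell in CD18Foxp3 Treg on stimulation, beside 33.6% and 38.6% of all genes called. Irf4, a factor of activated Treg, rose by 3.67 and 3.94 and Tbx21, which encodes T-bet, by 2.01 and 1.96. Tox2 fell by 3.43 and 3.10 and Tcf7, which encodes TCF-1, by 1.51 and 2.02. Tox2 was also the only gene of these lists that edgeR called between the genotypes. It stood at 61.0 ± 6.57 TPM in unstimulated CD18wt and 37.7 ± 1.96 TPM in unstimulated CD18Foxp3 Treg, a log2 fold change of -0.72 (SE 0.10, adjusted p = 0.00912). This call was lost with all 12 libraries in 1 fit (adjusted p = 0.283) and with limma on TPM (0.0687 and 0.0642). It was also lost without CD18wt replicate 1 (0.0348) or 2 (0.046) and without CD18Foxp3 replicate 1 (0.042), 2 (0.0557) or 3 (0.0902), with the log2 fold change between -0.77 and -0.64, and it was kept without CD18wt replicate 3 (0.000816) and by DESeq2 (6.88e-07).

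For each receptor the genes with the most similar pattern over the 12 libraries were found by the root mean square difference of centred log2 CPM (counts scaled to library size). For Pdcd1 they were Prnp (0.12), the prion protein gene, and Dnajb1 (0.15), and for Tigit Tm7sf3 (0.13) and Lamtor5 (0.15). Lag3 was nearest to Hsdl1 and Fam174a (both 0.19), and Cd200 to Prrg4 (0.16) and Cdr2 (0.22). Icos was nearest to Tent5a (0.22) and Nabp1 (0.27), and Cd28 to Slc35b4 and Sumo2 (both 0.09). Btla lay near Mtdh (0.15), and Cd83 near Gpr174 (0.14) and Tbc1d8b (0.15). For Klrg1 they were Il18r1 (0.38), a chain of the IL-18 receptor, and Cd74 (0.40), the invariant chain of MHC class II. Havcr2, with the fewest reads, had the least similar neighbours, 2210408F21Rik (0.51) and Pcsk1 (0.56). None of these nearest genes is itself among the 10 receptors.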

How the data were processed

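RNA of sorted splenic Treg was sequenced as poly(A) libraries after PCR amplification. The authors used CLC Genomics Workbench to align trimmed single-end reads to GRCm38 and to count reads by gene. They deposited counts of exon and intron reads and TPM (written with a decimal comma), which sum to the same total in every library. Unique-read columns served as an alternative, and the remaining columns, RPKM among them, entered no test. The counts are not strand-specific as far as the sources used here state.

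Exon counts were tested with edgeR 4.0.16 in R 4.3.3 (filterByExpr with a minimum count of 10, TMM, robust quasi-likelihood F-test, two-sided, Benjamini-Hochberg adjustment over all genes tested). A call needed a fold of 1.5 and an adjusted p of 0.01. Each comparison used its 6 libraries and the interaction all 12. The test was tried on simulated counts. The members and gene lists were chosen with earlier results of these data known. Named genes were the 10 receptors, the 3 largest called changes a list and comparison, Itgb2 and the nearest 2 genes of each receptor, not all of which are reported here. Alternatives were DESeq2 1.42.0, its size factors, no filter, uniquely placed reads, a replicate block, all 12 libraries, an adjusted p of 0.05, limma 3.58.1 on TPM on the log2 scale with a pseudocount of 1 or 0.1, and each library left out. Replicate numbers were not taken as pairs. Tables and figures were made with Python 3.11.15.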

Additional observations from a re-analysis of the deposited data

How the results depend on the processing

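Of the values of single receptors under all alternatives, 747 kept direction and side of the threshold, 29 passed it anew, 6 lost it and 28 changed sign. Of the calls, Cd200 in both genotypes, Cd83 in CD18wt Treg and Icos and Lag3 in CD18Foxp3 Treg held in all 14 refits. For the rest the cause was not tested.

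Without the filter on low counts 1 receptor was called between the genotypes in unstimulated Treg (Klrg1) and 1 in stimulated Treg (Icos, also called by DESeq2, 1 receptor). On stimulation of CD18Foxp3 Treg 3 receptors were called, and 5 by DESeq2, with the replicate block and at an adjusted p of 0.05. Limma on log2(TPM + 1) and log2(TPM + 0.1) also called 5, edgeR without the filter 6, and leaving out 1 library 3 to 5. Calls over all genes there were 4636, and 5070 with DESeq2, 4899 with the replicate block and 5470 at an adjusted p of 0.05. Limma gave 4978 and 4954 at pseudocounts of 1 and 0.1, and edgeR without the filter gave 5357. With 1 library left out the count ranged from 3591 to 4889. Over all genes the genotype comparison of unstimulated Treg gave 16 calls, and 86 with DESeq2, 134 without the filter, 41 with the replicate block, 0 with all 12 libraries, 1 and 2 with limma at pseudocounts of 1 and 0.1, 33 at an adjusted p of 0.05 and 0 to 44 with 1 library left out. In stimulated Treg it gave 0, and 22 with DESeq2, 61 without the filter, 1 with the replicate block, 1 with limma at a pseudocount of 0.1 and 0 to 2 with 1 library left out. The interaction gave 0, and 1 with DESeq2, 31 without the filter and 1 with limma at either pseudocount.

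With the replicate number as a block, Icos lost its call in CD18wt Treg (adjusted p = 0.0103), calls on stimulation over all genes were 3588 in CD18wt Treg (4013 without it) and 4899 in CD18Foxp3 Treg (4636), and Klrg1 and Havcr2 were called in the latter. Libraries of 1 number deviated together with a correlation of -0.095 to 0.096 in CD18wt and 0.07 to 0.147 in CD18Foxp3 Treg, and libraries of different numbers with -0.117 to 0.11 and -0.124 to -0.021. The labels do not say whether libraries of 1 number share a mouse, and not every pair was over 0.1. The number was therefore not taken as a pairing. Each CD18Foxp3 library correlated best with its own number, so whether these libraries are paired was not settled. A block nested in genotype, added after seeing the data, left the interaction at 0 calls.

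Sign changes were among values whose 95% intervals included 0. On the TPM scale Pdcd1 on stimulation of CD18Foxp3 Treg was 0.1062 and 0.1065 at pseudocounts of 1 and 0.1. With 1 library left out, Icos between unstimulated genotypes ranged from -0.0141 to 0.2413, and between stimulated genotypes Btla from -0.3555 to 0.1381 and Cd28 from -0.0206 to 0.282. On stimulation of CD18wt Treg Tigit ranged from -0.1149 to 0.1698 and Cd28 from -0.0173 to 0.1931, and of CD18Foxp3 Treg Tigit from -0.0592 to 0.1315. The interaction ranged from -0.1693 to 0.122 for Tigit, -0.1122 to 0.4051 for Btla, -0.0783 to 0.3139 for Cd200 and -0.3266 to 0.5755 for Klrg1.

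Depth limits Havcr2 most, with 8 reads in its lowest library. The edgeR p-values rest on 3 libraries a group, with the spread of each gene estimated using information shared over all genes tested.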
